A study of Mus musculus with 2 samples.

Results

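The interleukin-1 family was followed through the periodontal tissue of control mice and of mice with ligature-induced periodontitis (LIP). The 10 genes, of 31053 in the count files, were taken by symbol: the ligands *Il1a*, *Il1b*, *Il1f9*, *Il18* and *Il33*, the antagonist *Il1rn*, the receptors *Il1r1*, *Il1rap* and *Il1rl1*, and the decoy receptor *Il1r2*. Both groups were WT C57BL/6 mice of 8 weeks. The control mice were untreated, and the LIP mice were sampled 7 days after a ligature was placed. Cells of 5 mice were pooled into 1 library per condition, so that no spread between mice could be measured, no test was made, and each difference compares 2 libraries. The 95% intervals given here cover counting error only.

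IL-1α and IL-1β bind IL-1R1, which recruits the accessory chain IL-1RAP and signals through MyD88 to NF-κB. The receptor antagonist, the product of *Il1rn*, occupies IL-1R1 without recruiting the accessory chain, and IL-1R2 binds IL-1 without a signalling domain, so that both lower the response. IL-1 is known in the periodontium for recruiting leukocytes and for promoting bone resorption. IL-36γ, the product of *Il1f9*, and IL-33 act through receptors of their own, of which the IL-33 receptor ST2 is encoded by *Il1rl1*, and both share IL-1RAP. IL-18 uses a separate receptor pair.

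Cells with 200 to 7500 genes, at most 60000 UMIs and at most 10% mitochondrial UMIs were kept, 936 of 1212 barcodes in the LIP library and 883 of 1169 in the control library. The kept cells held 10560109 UMIs in LIP and 13407122 in control, with medians of 5595 and 10845 UMIs per cell. A single barcode was kept in both libraries. The classes were named by marker genes, with the IL-1 family and its pathway left out of the clustering. They held in LIP and control 323 and 51 neutrophil-like, 77 and 41 macrophage-like, 123 and 264 epithelial-like, 27 and 51 T-like, 26 and 90 fibroblast-like, 29 and 21 osteogenic-like, 45 and 46 mural-like, 79 and 48 vascular endothelial-like, 103 and 37 Schwann-like and 20 and 152 B-like cells. All 14 neutrophil markers were higher in neutrophil-like cells than in the other cells. In the osteogenic-like cells of the control library, 12 of 14 markers were higher, and *Phex* and *Mepe* were at 0. Of these 21 cells, 3 each had *Ibsp*, *Bglap* and *Bglap2*, 4 had *Sp7*, 13 had *Runx2* and 18 had *Col11a1*. All 21 had the fibroblast markers *Dcn* and *Col1a2*.

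The agonist genes, the antagonist gene and *Il1f9* lie on chromosome 2, and these 4 genes had their highest level in neutrophil-like cells among the classes of at least 20 cells. *Il1f9* (ENSMUSG00000044103) spans chr2:24186476-24193568 and *Il1rn* (ENSMUSG00000026981) chr2:24336853-24351494, both on the plus strand. *Il1a* (ENSMUSG00000027399) spans chr2:129299610-129309972 and *Il1b* (ENSMUSG00000027398) chr2:129364570-129371139, both on the minus strand of GRCm38. The sequence upstream of each gene's first start is shown so that the DNA next to the most abundant members can be read beside their levels. It runs over the 250 bases before the start, from RefSeq and the GRCm38.p6 assembly, 5′ to 3′ on the strand of the gene, with exon bases removed, which left 243 bases for the first of the 3 starts of *Il1rn*. Capitals mark matches, on either strand, to the letters GGGNNNNNCC (NF-κB), TGANTCA (AP-1), GAGGAA (PU.1) and TTGCNNAA (C/EBP), where N is any base.
Il1a, chr2:129309973-129310222, minus strand: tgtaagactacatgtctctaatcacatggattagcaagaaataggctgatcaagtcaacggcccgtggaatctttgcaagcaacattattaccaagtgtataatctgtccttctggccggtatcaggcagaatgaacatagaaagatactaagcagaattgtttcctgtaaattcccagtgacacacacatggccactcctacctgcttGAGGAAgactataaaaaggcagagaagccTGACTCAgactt
Il1b, chr2:129371140-129371389, minus strand: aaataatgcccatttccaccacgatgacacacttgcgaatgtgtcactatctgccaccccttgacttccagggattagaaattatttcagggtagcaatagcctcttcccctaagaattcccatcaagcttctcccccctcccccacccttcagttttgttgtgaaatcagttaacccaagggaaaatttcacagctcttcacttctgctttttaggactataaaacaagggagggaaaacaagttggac
Il1rn, chr2:24336610-24336852, plus strand: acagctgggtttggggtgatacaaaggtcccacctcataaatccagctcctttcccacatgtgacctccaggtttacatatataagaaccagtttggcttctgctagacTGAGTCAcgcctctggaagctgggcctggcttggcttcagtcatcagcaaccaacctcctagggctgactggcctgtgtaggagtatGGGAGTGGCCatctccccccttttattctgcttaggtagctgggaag
Il1f9, chr2:24186226-24186475, plus strand: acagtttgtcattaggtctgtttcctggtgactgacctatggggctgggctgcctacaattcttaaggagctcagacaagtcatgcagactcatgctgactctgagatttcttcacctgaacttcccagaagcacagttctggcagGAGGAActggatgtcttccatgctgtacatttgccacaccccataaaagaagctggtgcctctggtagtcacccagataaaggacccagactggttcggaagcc

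The *Il1rn* window held 1 AP-1 and 1 NF-κB match, the *Il1a* window 1 AP-1 and 1 PU.1 match, the *Il1f9* window 1 PU.1 match, and the *Il1b* window none. Over the 15 windows of the 10 genes, 3 held an NF-κB match, 2 an AP-1, 2 a PU.1 and 3 a C/EBP match. Among 32851 windows of annotated starts, these shares were 45.8%, 6.7%, 23.3% and 9.6%. A match describes the letters only, and a window without one says nothing of the factor. The receptor genes *Il1r2* (chr1:40074079-40125231), *Il1r1* (chr1:40225080-40317257) and *Il1rl1* (chr1:40429570-40465415) follow each other on the plus strand of chromosome 1.

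The level of each gene was read in every class as UMIs per 1000000 UMIs of that class (CPM). The 3′ libraries count 1 tag per transcript whatever its length, so that levels of different genes were set side by side without a correction for length. Whether the genes are captured alike was not tested, so ratios between genes are ratios of UMIs. The counts do not separate isoforms such as the secreted and intracellular forms of the antagonist or the soluble forms of IL-1RAP and ST2.

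**Figure D1:**
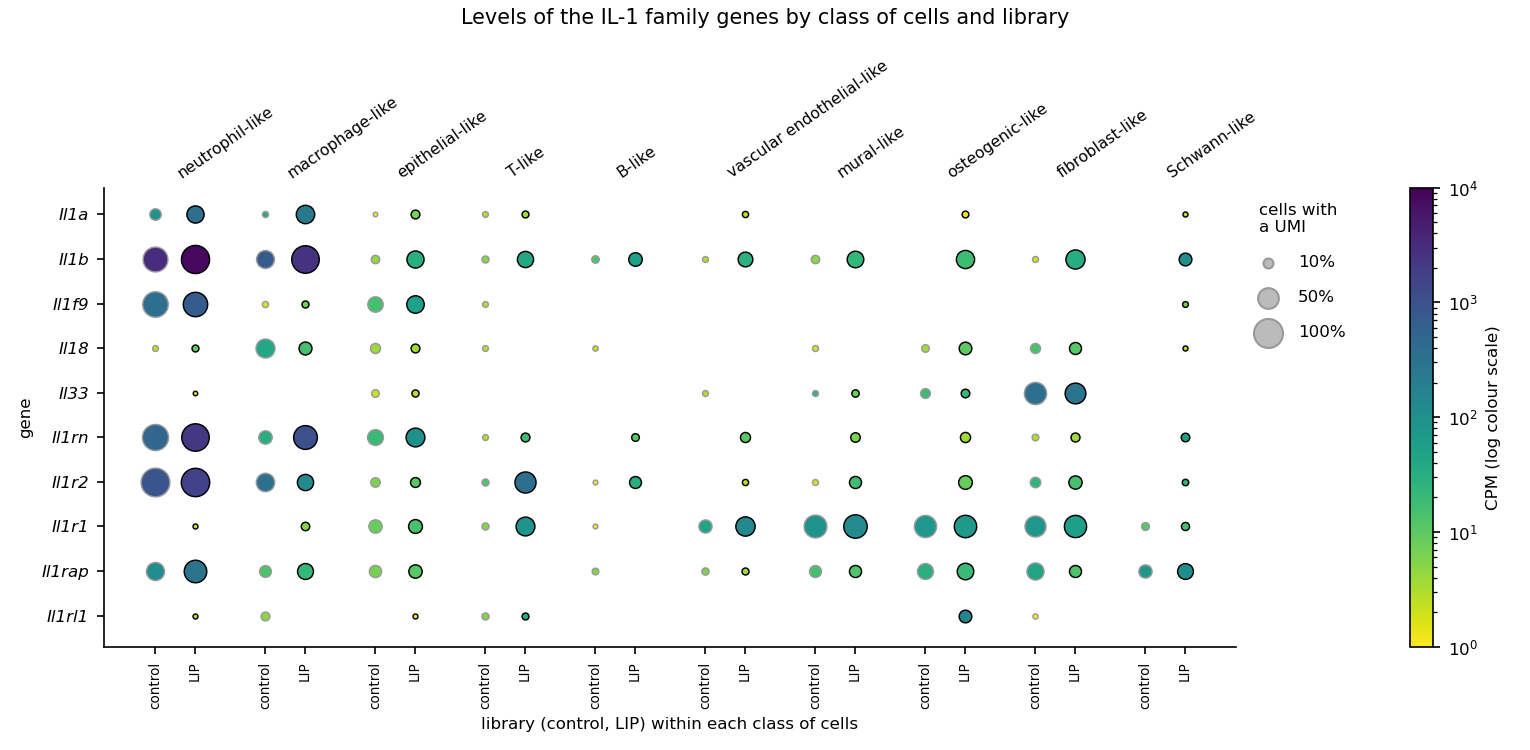
Level of each of the 10 genes (rows) in 10 classes of cells (columns), with the control and the LIP library side by side. Colour is CPM on a log scale, the area of a circle is the share of cells with at least 1 UMI, and no circle means 0 UMIs. *Il1b* was highest at 8347 CPM in neutrophil-like cells of the LIP library, whereas *Il1r1* reached no more than 130 CPM in any of these classes.

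*Il1b*, which encodes the secreted agonist IL-1β, was the most abundant gene of the family. The level in neutrophil-like cells was 8347 CPM (8207–8489) in LIP and 3075 CPM (2911–3244) in control. In macrophage-like cells it was at 2716 CPM (2633–2800) and 724 CPM (658–794). By CPM, neutrophil-like cells therefore stood above macrophage-like cells in both libraries, with intervals apart. They held 74.1% of the *Il1b* UMIs of the LIP library and 72.7% of those of the control library. Of the cells they were 34.5% and 5.78%. Macrophage-like cells held 22.4% and 24.2% of the UMIs and were 8.23% and 4.64% of the cells. Per cell the order in LIP was the reverse, with 4096 UMIs in 77 macrophage-like and 13527 UMIs in 323 neutrophil-like cells. The other named classes were at or under 102 CPM, apart from 9 erythroid-like cells in LIP at 196 CPM, where 31 of the 32 UMIs came from 1 cell. A group of 52 LIP cells with few UMIs each, left unnamed, was at 3372 CPM.

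A UMI of *Il1b* was found in 93.8% of neutrophil-like cells in LIP and in 72.5% in control. The shares in macrophage-like cells were 89.6% and 36.6%. In epithelial-like cells, which served as the reference for free RNA, they were 33.3% and 6.44%, at a median depth of 24114 and 28640.5 UMIs against 3860 and 6494 in neutrophil-like cells. When depth was made equal by drawing 1000 UMIs from each cell, *Il1b* in LIP was still seen in 88.1% of the neutrophil-like cells, in 57.1% of the macrophage-like cells and in 2.65% of the epithelial-like cells. Shallower cells could not be drawn from, namely 11 neutrophil-like and 10 epithelial-like cells. *Retnlg*, *Cxcr2* and *Csf3r*, genes of neutrophils, were also counted in the other classes of the LIP library. If these counts were neutrophil RNA, the same RNA would carry 74.2% of the *Il1b* UMIs of osteogenic-like, 62.8% of mural-like, 56.8% of epithelial-like and 45.4% of fibroblast-like cells, but 2.13% of those of macrophage-like cells. These shares have no interval. They rest on 13 UMIs of the neutrophil genes in osteogenic-like, 11 in mural-like, 57 in epithelial-like and 9 in fibroblast-like cells. The ratio of *Il1b* to these genes was that of all neutrophil-like cells together. Whether any *Il1b* UMIs of the stromal and epithelial-like cells remained beside this RNA is therefore not decided. Whether such UMIs are expression was not tested.

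*Il1a* encodes IL-1α, an agonist that is active without cleavage and is released from damaged cells. In LIP, its level was 349 CPM (320–379) in neutrophil-like and 241 CPM (217–267) in macrophage-like cells. In control, these values were 92.6 CPM (66.2–126) and 32.7 CPM, and all 20 UMIs of the macrophage-like cells came from 1 cell. Both classes together held nearly all *Il1a* UMIs, 565 and 363 of 959 in LIP and 40 and 20 of 62 in control. Epithelial-like cells, the usual store of IL-1α in skin, had 20 UMIs in LIP, of which 12 came from 1 cell, and 1 in control.

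The cells with *Il1a* were almost all cells with *Il1b*. Of the 109 neutrophil-like cells in LIP with an *Il1a* UMI, 107 also had *Il1b*, and so had 30 of 30 macrophage-like cells. In LIP, *Il1b* UMIs outnumbered those of *Il1a* 23.9 to 1 in neutrophil-like and 11.3 to 1 in macrophage-like cells.

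*Il1f9* had another distribution. It was at 707 CPM (667–749) in neutrophil-like and 55.8 CPM (47.6–64.9) in epithelial-like cells in LIP, and at 373 CPM (317–435) and 15.9 CPM (13.2–19.1) in control. Macrophage-like cells were at 7.29 and 1.64 CPM, with 9 of the 11 LIP UMIs in 1 cell. Of all *Il1f9* UMIs, epithelial-like cells held 42.0% in control and 12.3% in LIP. Of the epithelial-like *Il1f9* UMIs in LIP, neutrophil RNA read by the same 3 genes would account for 2.49%.

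The remaining ligands were low or stromal. *Il33*, which encodes a nuclear cytokine of barrier and stromal cells, was found mainly in fibroblast-like cells, at 294 CPM (250–344) in LIP and 345 CPM (309–384) in control, which is 83.0% and 89.0% of its UMIs. A UMI was present in 13 of 26 and 52 of 90 fibroblast-like cells. Osteogenic-like cells were at 20.7 and 18.5 CPM, with 2 positive cells in each library. Mural-like cells of control stood above the latter, on 14 UMIs in 1 cell. *Il18*, whose product like IL-1β is cleaved by caspase-1, had only 69 UMIs in LIP and 78 in control. It was highest in macrophage-like cells, at 15.3 CPM (9.67–22.9) and 39.3 CPM (25.2–58.5).

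The antagonist gene *Il1rn* was measured in the same cells as *Il1b*. In neutrophil-like cells it was at 2242 CPM (2170–2317) in LIP and 491 CPM (427–562) in control. In macrophage-like cells it was at 1060 CPM (1009–1113) in LIP and 32.7 CPM in control, the latter on 20 UMIs. In epithelial-like cells it was at 102 CPM (91.3–115) and 19.2 CPM (16.1–22.6). In control, macrophage-like cells thus stood close to epithelial-like cells, and in LIP far above them. With 1000 UMIs drawn per cell, *Il1rn* was seen in 70.8%, 32.5% and 9.73% of these classes in LIP, and in 39.2%, 2.44% and 2.71% in control. B-like cells had 1 UMI in 20 cells in LIP and 0 in 152 cells in control, at medians of 4577.5 and 4761 UMIs per cell. The 0 leaves room for up to 1.97% of cells to show a UMI at this depth, and sets no limit on the cells that express the gene.

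Agonist and antagonist transcripts were found together in single cells. In the LIP library, 276 of 323 neutrophil-like cells had both *Il1b* and *Il1rn*, and 47 of 77 macrophage-like cells did. In control, this was the case for 33 of 51 and 4 of 41 cells. Of the neutrophil-like cells in LIP, 290 of 323 had both *Il1b* and the decoy receptor gene *Il1r2*.

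**Figure D2:**
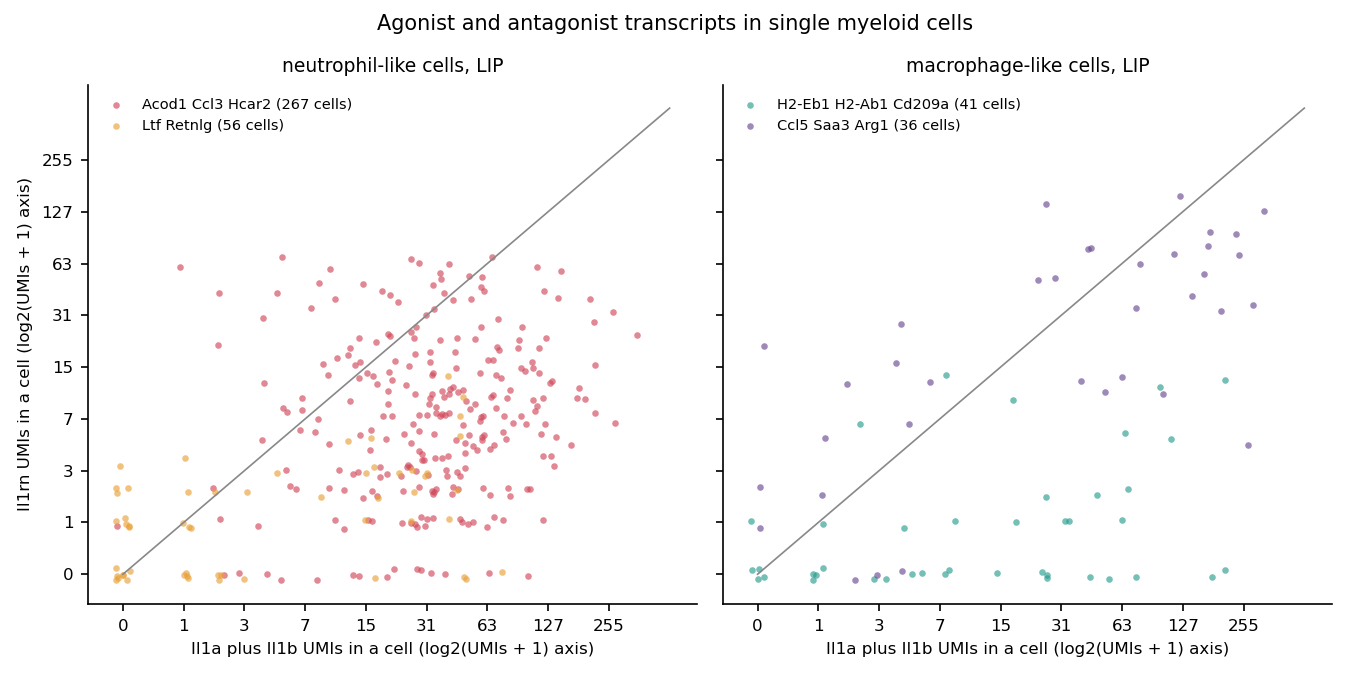
*Il1rn* UMIs (vertical) against the sum of *Il1a* and *Il1b* UMIs (horizontal) in single neutrophil-like (left) and macrophage-like (right) cells of the LIP library, on log2(UMIs + 1) axes with a small random shift of each point; the line marks equal numbers. Most cells lie under the line, and 12 of the 29 Ccl5, Saa3 and Arg1 cells with at least 10 UMIs of the 3 genes lie above it.

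Among the classes of at least 20 cells, the signalling receptor gene *Il1r1* was highest in stromal and vascular cells in both libraries, and in T-like cells in LIP. The order in LIP was vascular endothelial-like at 130 CPM (107–156), mural-like at 125 (99.1–156), T-like at 83.8 (53.1–126), osteogenic-like at 69.2 (52.4–89.7) and fibroblast-like cells at 58.4 (39.7–82.9). The interval of each class overlapped that of its neighbour in this order, while the intervals of vascular endothelial-like and mural-like cells lay above those of osteogenic-like and fibroblast-like cells. Epithelial-like cells were lower, at 14.8 CPM (10.7–19.8), macrophage-like cells had 8 UMIs in 5 of 77 cells, and neutrophil-like cells had 3 UMIs, or 1.85 CPM (0.38–5.41). In control, no *Il1r1* UMI was counted in neutrophil-like or macrophage-like cells, which allows up to 6.95 and 4.91 CPM, and the stromal order was mural-like at 96.5, osteogenic-like at 77.5, fibroblast-like at 73.3 and vascular endothelial-like at 46.4 CPM. T-like cells of control had 2 UMIs, or 5.29 CPM (0.64–19.1), against 8.37 CPM in epithelial-like cells. The main classes with agonist transcripts were thus not the classes with *Il1r1*.

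*Il1rap*, the accessory chain, was distributed in the opposite way. It was highest in neutrophil-like cells, at 300 CPM (274–328) in LIP and 111 CPM (81.9–147) in control, followed by Schwann-like cells at 111 and 74.7 CPM. In the classes with *Il1r1* it was lower, at 19.4 CPM (11.1–31.6) in osteogenic-like, 13.2 (on 7 UMIs) in fibroblast-like, 12.5 (5.40–24.6) in mural-like and 3.45 (0.71–10.1) in vascular endothelial-like cells of the LIP library. T-like cells had 0 UMIs in both libraries, which allows up to 10.9 CPM in LIP. Both *Il1r1* and *Il1rap* were found in 6 of 29 osteogenic-like (20.7%, exact interval 7.99–39.7), 5 of 45 mural-like, 3 of 26 fibroblast-like, 2 of 79 vascular endothelial-like and 0 of 27 T-like cells in LIP. In control, 4 of 21 osteogenic-like and 17 of 90 fibroblast-like cells had both. A gene at 12.5 CPM is sampled in few cells at a median of 12344 UMIs, the depth of mural-like cells in LIP, so that these shares are lower limits.

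*Il1rl1* was rare, with 145 UMIs in 12 cells of the LIP library and 18 UMIs in 8 cells of the control library. Of the 145 UMIs, 125 were in 5 of the 29 osteogenic-like cells, 57 of them in a single cell, and no *Il1rl1* UMI was found in the 21 osteogenic-like cells of control. All 5 cells had *Col1a2*, *Dcn*, *Lum*, *Postn* and *Col11a1*, and 4 had *Mmp13* and *Runx2*. Most osteogenic markers were lower in these 5 cells than in the other 24 osteogenic-like cells of the LIP library. Only *Alpl*, *Mmp13* and *Dlx5* were higher, the last at 42.3 against 13.2 CPM. *Sp7* was at 14.1 against 142 CPM, *Runx2* at 56.4 against 223, and *Dmp1* and *Phex* at 0 against 429 and 232. *Bglap*, the gene of osteocalcin, was at 0 against 12035 CPM, the latter in 12 of the 24 cells, and *Ibsp*, the gene of bone sialoprotein, at 691 against 11465. *Alpl*, the gene of alkaline phosphatase, was at 1853 against 575 CPM and *Mmp13* at 7329 against 3041. Mast cells are a usual site of ST2, and the 7 mast cell markers were at 0 in the 5 cells. In control, 12 of the 18 UMIs were in 2 cells of an unnamed group with few UMIs per cell.

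The decoy receptor gene *Il1r2* was at 1653 CPM (1591–1717) in LIP and 912 CPM (824–1007) in control in neutrophil-like cells, and a UMI was found in 95.4% and 98.0% of them. Among them, 305 of 323 had *Il1r2* without *Il1r1* in LIP, and 50 of 51 in control. T-like cells came next in LIP at 364 CPM (296–443), against 13.2 CPM (4.29–30.8) in control. Macrophage-like cells had 126.6 CPM (109–146) in LIP and 365 CPM (319–416) in control. The order of T-like and macrophage-like cells was therefore reversed between the libraries, with intervals apart in both.

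**Figure D3:**
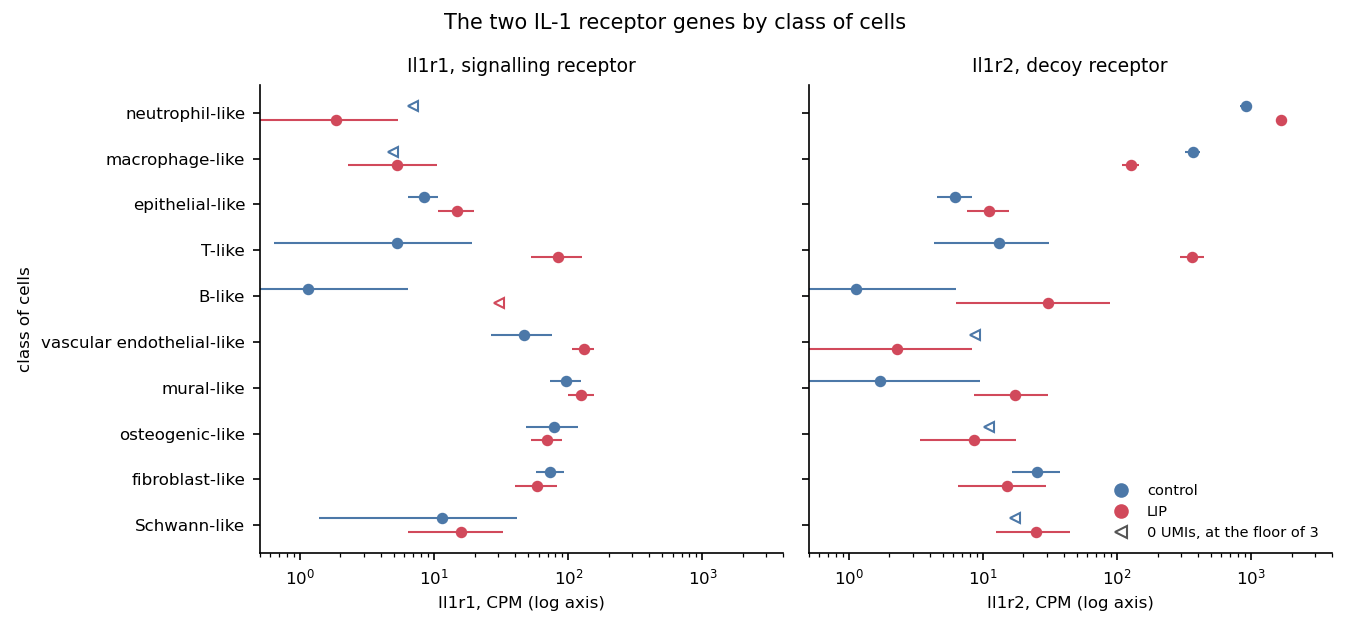
CPM of the signalling receptor gene *Il1r1* (left) and the decoy receptor gene *Il1r2* (right) on log axes in 10 classes of cells; points are the control and the LIP library, bars are 95% exact Poisson intervals, and open triangles stand at 3 UMIs where none was counted. In LIP, *Il1r1* was highest in vascular, mural, T-like, osteogenic-like and fibroblast-like cells, and *Il1r2* in neutrophil-like, T-like and macrophage-like cells, whereas T-like cells of control were at 5.29 and 13.2 CPM.

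The *Il1r2* UMIs of the T-like cells in LIP were spread over 14 of 27 cells, with at most 23 in 1 cell, and 10 of these cells also had *Il1r1*. The 14 cells had *Cd3d* and *Icos* in 14 of 14. *Trdc*, the constant region of the T cell receptor δ chain, was at 3337 CPM against 1438 CPM in the 13 cells without *Il1r2*. The β chain genes *Trbc1* and *Trbc2* were also higher, at 676 against 335 and 1040 against 690 CPM. Of the 11 T cell markers, only *Trac* (217 against 249 CPM) and *Lck* (117 against 201 CPM) were lower. Of the 14 neutrophil markers, *S100a9* was at 916 CPM in the cells with *Il1r2* against 220 in those without, and *S100a8* at 764 against 76.7. *Retnlg*, *Cxcr2*, *Ly6g* and *Mmp8* were at 0 in both sets of cells, and the other 8 markers had 1 to 4 UMIs each in the cells with *Il1r2*. Neutrophil RNA read by *Retnlg*, *Cxcr2* and *Csf3r* would account for 0.34% of the *Il1r2* UMIs of the T-like cells, and the part of RNA carrying *S100a8* and *S100a9* was not tested. With 1000 UMIs drawn per cell, *Il1r2* was seen in 4 of 27 T-like cells in LIP and in 1 of 51 in control.

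The libraries were then compared, LIP over control, to find where the family differed. Over all kept cells, *Il1a* was at 90.8 and 4.62 CPM (log2 ratio 4.30, 3.92–4.69), *Il1rn* at 532 and 28.3 (4.23, 4.08–4.39), *Il1b* at 1728 and 136 (3.67, 3.60–3.74) and *Il1rl1* at 13.7 and 1.34 (3.35, 2.64–4.15). *Il1f9* (2.60), *Il1r2* (2.48) and *Il1rap* (2.06) were also more than 2-fold higher in LIP, *Il1r1* was 1.97-fold higher (1.67–2.32), and *Il18* had a log2 ratio of 0.17 (−0.32 to 0.65). *Il33* was lower in LIP, at 17.8 against 28.4 CPM (−0.67, −0.93 to −0.42). These are 7 of 10 members past 2-fold higher and none past 2-fold lower, where 10.4% and 7.98% of all genes with at least 10 UMIs were. In such sums more cells of a type and more RNA per cell cannot be told apart, and neutrophil-like cells gave 15.3% of the UMIs of LIP and 3.22% of those of control.

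The share of this that went with the makeup of the libraries was read by combining the class levels of one library with the class sizes of the other. Control levels at the makeup of the LIP library gave 578 CPM for *Il1b*, and LIP levels at the makeup of the control library gave 455, between the measured 136 and 1728. For *Il1rn*, these values were 85.7 and 182, between 28.3 and 532. For *Il1r2* they were 196 and 82.4 CPM, for *Il1f9* 62.0 and 55.7, and for *Il1a* 19.0 and 26.7. Class sizes leave the mixture of sub-clusters within a class in the level, and the order of the values for *Il1rn* and *Il1a* depended on this. The makeup was also taken by sub-cluster, a choice made after seeing the data. The values were then 1122 and 273 CPM for *Il1b* and 192 and 107 CPM for *Il1rn*. They were 289.5 and 63.0 CPM for *Il1r2*, 84.5 and 51.4 for *Il1f9* and 42.0 and 12.1 for *Il1a*. The *Il1r2* value at control levels was thus close to the 291 CPM measured in LIP. The neutrophil-like part of the control levels rested on 51 cells. For *Il33*, both values by class were between the measured ones, at 21.6 and 23.8 CPM.

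Within classes, 50 pairs of a gene and a class had at least 10 UMIs over both libraries, among the 10 classes with at least 20 cells in each library. Of these pairs, 26 were past 2-fold higher in LIP (52.0%) and 4 past 2-fold lower (8.00%), where all genes in the same classes had 9.83% and 8.95%. A pair that reaches the minimum only through the library in which it is high had to differ, so that these counts describe the pairs and carry no test.

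In neutrophil-like cells, 5 of 7 members with enough UMIs were past 2-fold higher and none past 2-fold lower, where 14.0% and 8.38% of all genes were. The log2 ratios were 2.19 for *Il1rn* (1.99–2.40), 1.91 for *Il1a* (1.45–2.41), 1.44 for *Il1b* (1.36–1.52) and 1.43 for *Il1rap* (1.003–1.89). *Il18* was past 2-fold on 15 UMIs against 1, with an interval from −0.70 to 7.39. *Il1f9* at 0.92 (0.68–1.17) and *Il1r2* at 0.86 (0.70–1.01) were under 2-fold. The antagonist gene had the largest ratio of the 6 members with at least 25 UMIs, and its interval overlapped that of *Il1a*.

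The neutrophil-like cells of the libraries were not the same mixture. A sub-cluster led by *Acod1*, *Ccl3* and *Hcar2* held 267 of 323 cells in LIP and 24 of 51 in control, and one led by *Ltf*, *Retnlg* and *Ifitm6*, genes of neutrophil granules among them, held 56 and 27. *Il1b* was at 13526 CPM in the first and 1093 in the second in LIP, and at 11147 and 958 in control. Within the first, the log2 ratio of LIP over control was 0.28 (0.19–0.37) for *Il1b* and 0.91 (0.69–1.14) for *Il1rn*, and within the second 0.19 (0.00–0.38) and 0.66 (0.09–1.26). *Il1r2* was −0.04 (−0.23 to 0.17) and 0.16 (−0.10 to 0.43), so that no difference was detectable in either. The ratios of the whole class were thus larger than those within its sub-clusters for *Il1b*, *Il1rn* and *Il1r2*.

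**Figure D4:**
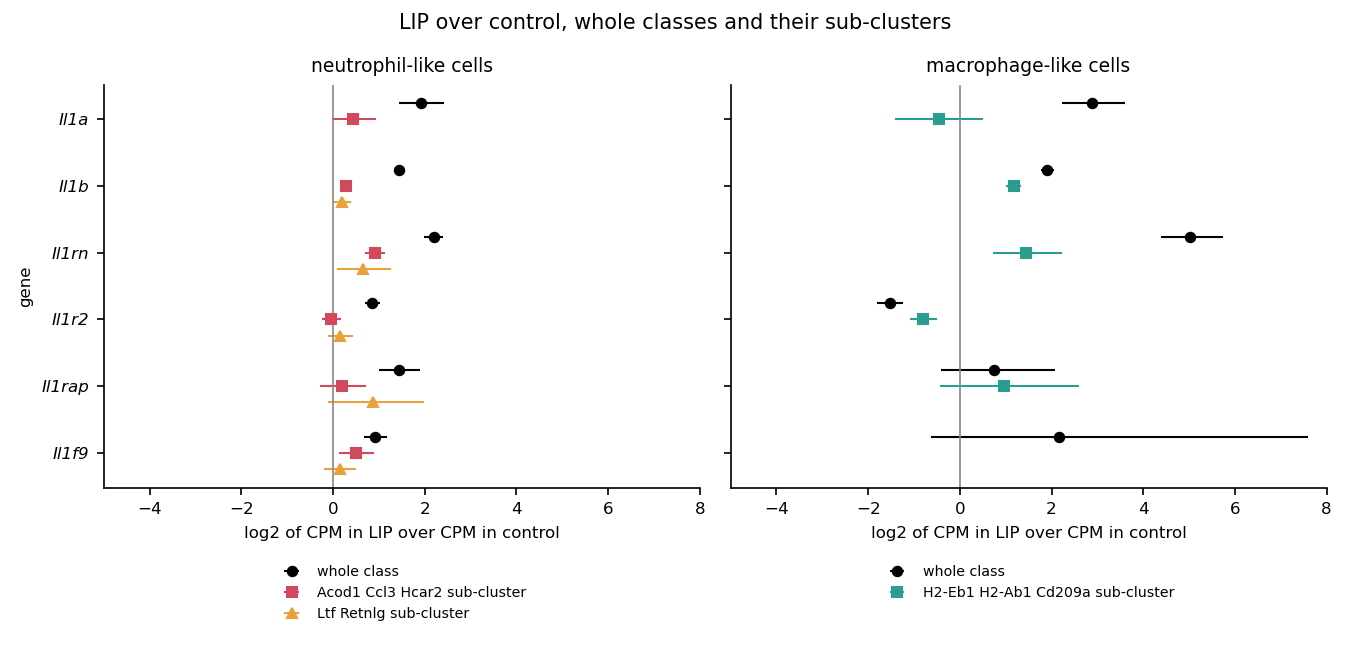
Log2 ratio of CPM in LIP over CPM in control (horizontal axis) for 6 genes (rows) in neutrophil-like (left) and macrophage-like (right) cells, for the whole class and for sub-clusters with enough cells of both libraries; bars are 95% counting intervals. The ratio of *Il1b* in neutrophil-like cells was 1.44 for the class and 0.28 and 0.19 in its sub-clusters.

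In macrophage-like cells, 4 of 7 members with enough UMIs were past 2-fold higher and 2 past 2-fold lower, where 11.0% and 9.33% of all genes were. *Il1rn* had a log2 ratio of 5.02 (4.39–5.73), or 32.4-fold, *Il1a* of 2.88 (2.23–3.61) and *Il1b* of 1.91 (1.77–2.05). *Il1r2* was lower in LIP at −1.53 (−1.81 to −1.24), and so was *Il18* at −1.37 (−2.26 to −0.48). Among the macrophage-like cells, agonists and antagonist were thus higher in LIP, and the decoy receptor was lower, at −1.18 without the cell with the most UMIs in each library.

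These values went with a sub-cluster that was nearly confined to LIP. The cells led by *Ccl5*, *Saa3* and *Arg1* numbered 36 in LIP and 4 in control, and may be the LIP library rather than a type. Their 10 leading genes held 1 macrophage marker (*Pf4*) and 1 osteoclast marker (*Acp5*). In the LIP library they were at 2117 CPM for *Il1rn* (2012–2226), 3699 for *Il1b* (3560–3843), 476 for *Il1a* (427–530) and 6.96 for *Il1r2* (2.26–16.3). The sub-cluster led by *H2-Eb1*, *H2-Ab1* and *Cd209a*, with 1 macrophage and 1 dendritic cell marker among its leading genes, held 41 and 37 cells. There, *Il1rn* was at 99.98 CPM in LIP and 36.6 in control (1.45, 0.73–2.24), *Il1b* at 1822 and 809 (1.17, 1.02–1.33) and *Il1r2* at 235 and 408 (−0.79, −1.08 to −0.51). *Il1a* was at 26.6 and 36.6 CPM (−0.46, −1.42 to 0.50) and did not differ beyond counting error, but all 20 control UMIs were in 1 cell. Without that cell, control had 0 *Il1a* UMIs and the log2 ratio was at least 2.22. Without the cell with the most *Il1a* UMIs in each library it was at least 1.57. The direction of *Il1b* and *Il1rn* was therefore the same without the *Ccl5*, *Saa3* and *Arg1* cells, with smaller ratios. The *Il1r2* ratio in this sub-cluster rested on 1 control cell with 86 of the 223 UMIs. Without it, the ratio was −0.17 (−0.49 to 0.16), within counting error, and without the cell with the most *Il1r2* UMIs in each library it was −0.45 (−0.79 to −0.10). When the libraries were merged without integration, these 36 cells formed a group of LIP cells that stayed unnamed, and the ratios of the remaining macrophage-like cells were 1.51 for *Il1rn*, 1.23 for *Il1b* and −0.40 for *Il1a*. The last again has all its control *Il1a* UMIs in 1 cell.

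In epithelial-like cells, 4 of 9 members were past 2-fold higher and none past 2-fold lower, where 7.52% and 4.47% of all genes were. *Il1rn* had a log2 ratio of 2.42 (2.13–2.72) and *Il1f9* of 1.81 (1.46–2.16). Both differed most in the sub-cluster led by *BC037156*, *Krt4* and *Dynap*, with *Krt4* a keratin of the lining mucosa, where *Il1rn* was at 351 CPM in LIP and 36.0 in control (3.28, 2.87–3.72) and *Il1f9* at 145 and 21.6 (2.74, 2.17–3.34). The cell with the most UMIs of the gene in LIP held 90 of *Il1rn* and 25 of *Il1f9*. Without such a cell in each library, the log2 ratios were 2.97 (2.49–3.48) and 2.55 (1.92–3.20). In the sub-cluster led by *Pappa*, *Fst* and *Col17a1*, a basal keratinocyte gene, *Il1rn* was at 14.1 and 15.3 CPM (−0.12, −1.08 to 0.79). *Il1b* in epithelial-like cells had a log2 ratio of 2.65 (2.07–3.27), and neutrophil RNA read by the 3 genes above would carry 48.8 of its 86 UMIs in LIP and 11.5 of its 34 UMIs in control.

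In vascular endothelial-like cells *Il1r1* was at 130 against 46.4 CPM, a log2 ratio of 1.49 (0.73–2.34). It was one of 2 members with enough UMIs there, and both were past 2-fold higher, where 9.78% of all genes were past 2-fold higher and 7.56% lower. In T-like cells, 4 of 4 were past 2-fold higher, where 12.4% of all genes were higher and 11.0% lower. *Il1r2* had 4.78 (3.51–6.44) there and *Il1r1* 3.99 (1.97–7.12), the latter on 23 against 2 UMIs. The others were *Il1b*, on 11 against 2 UMIs, and *Il1rl1*, with all 10 LIP UMIs in 1 cell.

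In fibroblast-like cells, 1 of 6 members was past 2-fold higher and 1 lower, where 6.41% and 9.68% of all genes were. The higher one was *Il1b*, on 17 against 2 UMIs, and the lower one *Il1rap*, at 13.2 against 44.8 CPM (−1.76, −3.16 to −0.60). *Il33* in these cells had a log2 ratio of −0.23 (−0.51 to 0.05), and *Il1r1* of −0.33 (−0.98 to 0.30), neither beyond counting error. In mural-like cells, 2 of 5 were past 2-fold higher and 1 lower, where 8.63% and 6.92% of all genes were, each on at most 19 UMIs over both libraries, and *Il1r1* had 0.37 (−0.13 to 0.89).

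In osteogenic-like cells *Il1rl1* was at least 13.7-fold higher, the single member of 5 past 2-fold, where 9.04% of all genes were higher and 15.4% lower. *Il1r1* had −0.16 (−0.91 to 0.63) there. The makeup of this class differed between the libraries, with *Bglap* in 3 of 21 cells in control. In LIP, *Bglap* was in 12 of the 24 cells without *Il1rl1* and in 0 of the 5 with it. No class was named osteogenic-like when the libraries were merged without integration or with at most 5% mitochondrial UMIs. Scaling by the median ratio of all genes in place of the UMI total raised the osteogenic-like ratios by 0.19 on the log2 scale, which put *Il1r1* at 0.03, and turned the split of all genes from 784 higher and 1335 lower to 1071 and 903. In Schwann-like cells 2 of 4 members were past 2-fold higher, *Il1b* and *Il1rn*, with 27 of 45 and 21 of 27 LIP UMIs in 1 cell, where 8.37% of all genes were higher and 10.9% lower. In B-like cells *Il1b*, on 5 against 11 UMIs, was the single member tested and was past 2-fold higher, where 15.2% of all genes were higher and 8.78% lower, and the other scaling turned that split from 1041 and 600 to 737 and 828.

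To weigh the antagonist against the agonists, the UMIs of *Il1rn* were divided by those of *Il1a* and *Il1b* together. Over all kept cells, there were 5614 against 19207 UMIs in LIP, a ratio of 0.292 (0.284–0.301), and 379 against 1888 in control, a ratio of 0.201 (0.179–0.224). Agonist UMIs therefore outnumbered antagonist UMIs 3.42 to 1 in LIP and 4.98 to 1 in control. The antagonist share was higher in LIP, beyond counting error.

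The ratio was then read by class. It was 0.258 (0.249–0.267) in LIP and 0.155 (0.133–0.179) in control in neutrophil-like cells. Within the *Acod1* sub-cluster it was 0.264 and 0.171, and within the *Ltf* sub-cluster 0.142 and 0.103, the latter with overlapping intervals of 0.115–0.174 and 0.0704–0.147. In macrophage-like cells it was 0.359 (0.338–0.380) and 0.0433 (0.0262–0.0676), but 0.0541 and 0.0433 within the *H2-Eb1* sub-cluster, and 0.507 (0.476–0.539) in the *Ccl5*, *Saa3* and *Arg1* cells of LIP. Epithelial-like cells had more antagonist than agonist UMIs, 305 against 106 (2.88, 2.30–3.62) in LIP and 142 against 35 (4.06, 2.79–6.05) in control. The excess was largest in the *Krt4* sub-cluster, with 228 against 19 UMIs in LIP and 60 against 3 in control (ratio intervals 7.51–20.3 and 6.52–99.7). Of the 228, 90 came from 1 cell. No other epithelial-like sub-cluster of LIP had more *Il1rn* than agonist UMIs. In the dividing sub-cluster led by *Hist1h2ap*, *Top2a* and *Prc1* the ratio was 0.885 (0.602–1.30) in LIP and 5.2 (1.96–17.3) in control. The agonist UMIs of these epithelial-like cells include those that neutrophil RNA would carry.

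**Figure D5:**
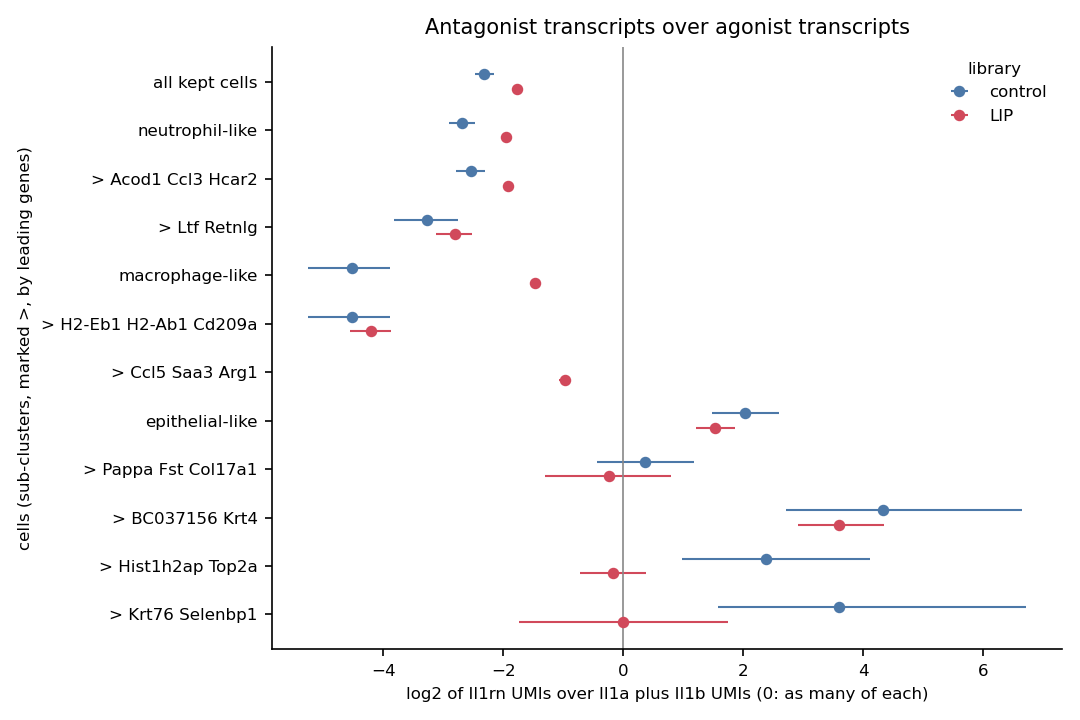
Log2 of *Il1rn* UMIs over the sum of *Il1a* and *Il1b* UMIs (horizontal axis; 0 marks equal numbers) in all kept cells, in 3 classes and in their sub-clusters, for the control and the LIP library, with 95% counting intervals. Neutrophil-like and macrophage-like cells lie left of 0 in both libraries, at −1.96 and −1.48 in LIP, and epithelial-like cells lie right of it at 1.52.

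The same balance was read cell by cell, in cells with at least 10 UMIs of the 3 genes. The median antagonist share was 14.04% in 277 neutrophil-like cells of LIP and 7.93% in 34 of control. *Il1rn* was in the majority in 40 of the 277 cells (14.4%), all in the *Acod1* sub-cluster, and in 1 of the 34. In the *Ccl5*, *Saa3* and *Arg1* cells, the median share was 33.9% and *Il1rn* was in the majority in 12 of 29 cells, against 2.78% and 1 of 23 in the *H2-Eb1* cells of LIP.

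The decoy receptor was weighed against the signalling receptor in the same way. Over all kept cells, *Il1r2* and *Il1r1* had 3073 and 375 UMIs in LIP (ratio 8.19, 7.36–9.15) and 697 and 242 in control (2.88, 2.48–3.35). The excess of the decoy came from the leukocytes, with 893 to 1 in neutrophil-like, 23.9 to 1 in macrophage-like and 4.35 to 1 (2.74–7.17) in T-like cells of the LIP library. The 893 rests on 3 *Il1r1* UMIs and has an interval from 305 to 4333. In the stromal and vascular classes with *Il1r1*, but not in T-like cells, the order was the reverse, with 56.5 *Il1r1* UMIs for each of *Il1r2* in vascular endothelial-like, 8.14 in osteogenic-like, 7.27 in mural-like and 3.88 in fibroblast-like cells in LIP. The first rests on 2 *Il1r2* UMIs. Epithelial-like cells were at 0.75 (0.463–1.21) in LIP and 0.742 (0.495–1.104) in control and did not differ between the libraries beyond counting error.

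The genes most like the members in level were named over the 20 points of 10 classes in 2 libraries, by Pearson's r of log2(CPM + 10) among 13123 genes with at least 50 UMIs. The points share the 2 libraries and their depth, and r describes them without a test. For *Il1b* they were *Wfdc17*, *Nlrp3* and *Ccl3* (each r = 0.97), and for *Il1rn* *Slc7a11* (0.98), *Clec4e* (0.95) and *Clec4d* (0.95). For *Il1r1* they were *Enpp2* (0.91), *Ttc28* (0.89) and *Airn* (0.87), and for *Il1r2* *Ebi3* (0.94), *Ccr1* (0.93) and *Lilr4b* (0.92).

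The other 38 genes of the pathway were read by role, in whole classes. Their ratios therefore include the differing mixtures of sub-clusters given above for neutrophil-like and macrophage-like cells, and ratios within sub-clusters are not given. The maturation and release genes include those of the inflammasome, which cleaves pro-IL-1β. Of the list, 2 of 7 with enough UMIs were past 2-fold higher in neutrophil-like cells and none lower, where 14.0% and 8.38% of all genes were. *Nlrp3*, a sensor of the inflammasome, was at 1459 CPM in LIP and 241 in control (2.60, 2.32–2.90), and *Casp4* at 344 and 109 (1.66, 1.23–2.12). *Casp1*, the protease that cuts IL-1β and IL-18, was at 20.4 and 27.8 CPM in the same cells, and at 53.4 and 56.4 in epithelial-like and 72.3 and 81.9 in macrophage-like cells. *Pycard*, the adaptor, was at 24.7 and 37.0 CPM in neutrophil-like and 181 and 164 in macrophage-like cells. The transcripts of the sensor and of the protease were therefore highest in different classes.

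Of the other family members, *Il1f8*, which encodes IL-36β, was at 8.06 CPM in LIP and 0.810 in control in epithelial-like cells (3.32, 1.99–4.90), and *Il18bp*, the binding protein that neutralises IL-18, at 3.02 and 0.405 (2.90, 0.90–5.42), the control value on 3 UMIs. The IL-36 receptor gene *Il1rl2* was at 21.8 and 15.8 CPM in epithelial-like and at 20.7 and 46.9 in fibroblast-like cells. *Il18rap*, a chain of the IL-18 receptor, was at 156 and 176 CPM in neutrophil-like cells. Of the 8 adaptors and kinases, none was past 2-fold in either direction in epithelial-like, mural-like or vascular endothelial-like cells. There, 7.52%, 8.63% and 9.78% of all genes were higher and 4.47%, 6.92% and 7.56% lower. In neutrophil-like cells 1 of 7 was higher, *Irak2* (1.11, 0.61–1.65), a share close to the 14.0% of all genes. In macrophage-like cells 1 of 8 was higher (all genes 11.0%). Fibroblast-like cells had 2 of 7 lower (all genes 9.68%) and osteogenic-like cells 2 of 8 (15.4%). Schwann-like cells had 2 of 5 lower (10.9%) and T-like cells 1 of 6 (11.0%). In B-like cells 1 of 7 was higher and 2 lower, where 15.2% and 8.78% of all genes were.

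The brakes on signalling are genes that limit the response, and their ratios too are those of whole classes with differing mixtures. In neutrophil-like cells, 3 of 5 were past 2-fold higher, *Tnfaip3* at 1.71 (1.39–2.04), *Nfkbia* at 1.59 (1.47–1.71) and *Irak3* at 1.26 (0.64–1.95), and in macrophage-like cells 2 of 5, *Irak3* at 3.55 (1.96–5.86) and *Tnfaip3* at 1.06 (0.80–1.33), where 14.0% and 11.0% of all genes were. *Irak3* encodes the kinase-like inhibitor IRAK-M, and *Tnfaip3* the ubiquitin-editing enzyme A20. In fibroblast-like cells, *Nfkbia* was lower in LIP at −1.03 (−1.39 to −0.69) and *Zc3h12a* higher, where 9.68% of all genes were lower and 6.41% higher. In osteogenic-like cells 1 of 4 was higher, *Irak3*, and 1 lower, *Tollip*, where 9.04% and 15.4% of all genes were. *Irak3* was lower in vascular endothelial-like and *Tollip* in B-like cells, each 1 of 5, where 7.56% and 8.78% of all genes were. None was past 2-fold in epithelial-like or mural-like cells, with 5 tested in each, or in Schwann-like or T-like cells, with 3. There, 7.52%, 8.63%, 8.37% and 12.4% of all genes were higher and 4.47%, 6.92%, 10.9% and 11.0% lower.

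Genes known to rise under IL-1 were past 2-fold higher in 6 of 6 cases with enough UMIs in epithelial-like cells and in 5 of 6 in osteogenic-like cells, where 7.52% and 9.04% of all genes were. In epithelial-like cells *Cxcl5*, a neutrophil chemokine, was at 372 CPM in LIP and 0.405 in control, on 1108 against 3 UMIs, *Cxcl1* was at 56.8 and 0.675, *Ccl2* at 46.4 and 0.135, and *Csf3*, the gene of G-CSF, had 97 UMIs against 0. In osteogenic-like cells *Ccl2* was at 244 and 7.38 CPM, *Cxcl1* at 115 and 7.38, *Cxcl5* at 810 and 192 and *Mmp3* at 423 and 103, and *Il6* had 67 UMIs against 0. The makeup of this class differed between the libraries, as given above. In fibroblast-like cells, *Cxcl5* (1.66, 1.08–2.25) and *Ccl2* (2.55, 1.17–4.16) were higher and *Mmp3* was lower (−1.16, −1.44 to −0.89), 2 and 1 of 5. In mural-like cells 2 of 5 were higher and 1 lower. The shares of all genes were 6.41% and 9.68% in the former class and 8.63% and 6.92% in the latter. In neutrophil-like cells 4 of 5 were higher, in macrophage-like 3 of 6, in vascular endothelial-like 3 of 5 and in T-like cells 2 of 2. There, 14.0%, 11.0%, 9.78% and 12.4% of all genes were higher. The mixtures of sub-clusters in the neutrophil-like and macrophage-like classes also differed between the libraries, as given above. Schwann-like cells had 1 of 2 higher and B-like cells 0 of 1, where 8.37% and 15.2% of all genes were. These genes also respond to other cytokines. Whether they followed IL-1, or went with the *Il1r1* level of a class, was not tested.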

How the data were processed

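Periodontal tissue of control and LIP mice was profiled by 10x 3′ v3 single-cell RNA-seq, 1 library per condition. The deposited matrices hold whole-number UMI counts per gene and barcode, made by the authors with Cell Ranger 3.1.0 per the file headers, on mm10 per the labels. Filters on cells are given in the text. Libraries were integrated in Seurat 5.3.0 (R 4.3.3, Matrix 1.6.5) with 30 dimensions, clustered at resolution 0.1 and sub-clustered at 0.2, with the family and pathway genes left out of the variable features. A cluster was named from at least 3 markers detected in at least 25% of its cells, against its 10 leading genes. Scrublet in scanpy 1.11.5 marked 4 control and 1 LIP cell as doublets, which were kept. Sums of UMIs, CPM, exact Poisson intervals for sums, Clopper-Pearson intervals for shares and conditional binomial intervals for ratios (all 95%) were computed in Python 3.11.15 with numpy 2.4.6, scipy 1.17.1 and pandas 2.3.3, and checked on simulated data. Figures were drawn with matplotlib 3.10.9. With 1 library per condition no test was possible. A sum of 0 was set to 3 UMIs for a bound on a ratio and for the level that a 0 allows, and 0 cells to 3 cells for the share it allows. These limits are not the exact intervals named above.

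The genes named are the 10 members, the pathway lists, the class markers, the 3 leading genes of each sub-cluster, 3 genes of neutrophil RNA, and for *Il1b*, *Il1rn*, *Il1r1* and *Il1r2* the 3 genes with the highest r. The members and lists were chosen with earlier results of these data known. Alternatives were 15 dimensions, resolution 0.3, no integration, the family's genes kept among the variable features, a 5% mitochondrial limit, a minimum of 1000 UMIs per cell, doublets removed, other minimums of UMIs per gene, the mean of single cells, another scaling and, added after seeing the data, removal of the cell with the most UMIs and makeup by sub-cluster.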

Additional observations from a re-analysis of the deposited data

Results flagged for a closer look

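The decoy receptor gene *Il1r2* moved in opposite directions in T-like and macrophage-like cells, with a log2 ratio of LIP over control of 4.78 on 100 against 5 UMIs in the former and −1.53 on 191 against 223 UMIs in the latter. The difference between the classes was not tested. The T-like UMIs in LIP came from 14 cells. In macrophage-like cells of control, 86 of the 223 UMIs came from 1 cell, and the *H2-Eb1* sub-cluster, with 41 LIP and 37 control cells, had −0.79, or −0.17 (−0.49 to 0.16) without that cell.

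The accessory chain gene *Il1rap* had a log2 ratio of 1.43 in neutrophil-like and −1.76 in fibroblast-like cells, a difference that was not tested. Within the neutrophil-like sub-clusters the ratios were 0.19 (−0.29 to 0.72) and 0.88 (−0.11 to 1.99). The fibroblast-like value rests on 7 UMIs in 4 of 26 cells in LIP against 44 UMIs in 30 of 90 cells in control.

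*Il1b* was counted at 3372 CPM (364 UMIs in 25 of 52 cells) in a group of LIP cells that was left unnamed. Its sub-cluster held 1 class marker, the neutrophil marker *Hdc*, under the minimum of 3 for a name. The median depth of these LIP cells was 807.5 UMIs per cell. In the 26 control cells of the group *Il1b* was at 0, which allows up to 24.5 CPM. These cells took part in no comparison between classes. *Il1r2* was found in 11 of the 52 cells. Neutrophil RNA read by *Retnlg*, *Cxcr2* and *Csf3r*, on 144 UMIs, would carry 33.9% of the *Il1b* and 106% of the *Il1r2* UMIs of these LIP cells.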

How the results depend on the processing

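The ratio of *Il1rn* to agonist UMIs in neutrophil-like cells in LIP stayed between −1.98 and −1.91 (log2) under all 9 alternatives run for it. With the mean of the CPM of single cells, the neutrophil-like share of *Il1b* in LIP was 83.2%, the log2 ratio of *Il1rn* to agonists over all kept cells was −1.96 in LIP and −2.56 in control, that of *Il1r2* to *Il1r1* was 4.92 and 2.38, and the macrophage-like ratios of LIP over control were 2.36 for *Il1b* and 5.83 for *Il1rn*. The share of *Il1b* was 76.0% with 15 dimensions, 76.1% with the family's genes among the variable features, 74.8% with at most 5% mitochondrial UMIs and 75.4% with at least 1000 UMIs per cell, where *Il1b* in macrophage-like cells was at 2.41. The 5% limit put *Il1r2* over *Il1r1* at 3.75 in LIP and 2.35 in control. Without the cell with the most UMIs, an alternative chosen after seeing the data, *Il1rn* over agonists in macrophage-like cells in LIP was −1.58 and *Il1b* there 2.13. Merged without integration, the macrophage-like class held 39 LIP cells without the *Ccl5*, *Saa3* and *Arg1* cells, and by that construction *Il1rn* over agonists was −4.21, *Il1b* 1.23, *Il1rn* 1.51 and *Il1a* −0.40, the last reversed from 2.88. Both *Il1a* ratios have all their control UMIs in 1 cell. A minimum of 25 UMIs per gene left 19 pairs past 2-fold, and no minimum 35, against 30. For the other moves the cause was not tested. Of 43 other ratios of a member in a class, 34 kept their direction under all alternatives run. No paired analysis was possible because each condition is 1 library. Many class values of the receptor genes and of *Il18* rest on fewer than 25 UMIs, and 1 library per condition leaves the spread between mice unknown.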

Other observations

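The other antagonists of the family were set against their ligands in epithelial-like cells in the same way as *Il1rn*. *Il1f5*, which encodes the IL-36 receptor antagonist, had 5 UMIs against 166 of *Il1f9* in LIP, a ratio of 0.0301 (0.00965–0.0717), and 14 against 118 in control, a ratio of 0.119 (0.0629–0.207). *Il18bp*, which neutralises IL-18, had 9 UMIs against 11 of *Il18* in LIP, a ratio of 0.818 (0.2997–2.17), and 3 against 29 in control, a ratio of 0.103 (0.0202–0.334). The intervals of the libraries overlap for both ratios.

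The IL-18 receptor chains were found in leukocytes and also, with at least 10 UMIs each over both libraries, in epithelial-like cells. There, both were past 2-fold lower in LIP, 2 of the 4 other receptor genes of the family, where 4.47% of all genes were. In T-like cells *Il18r1* was at 142 CPM (101–194) in LIP and 166 CPM (128–213) in control, and *Il18rap* at 102 CPM (67.8–147) and 47.6 CPM (28.2–75.2). In neutrophil-like cells *Il18r1* was at 9.87 CPM (5.64–16.03) and 25.5 CPM (12.7–45.6), on 16 and 11 UMIs.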
